A study of Mus musculus with 19 samples.

Results

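The 8 genes Abcc6, Pipox, Prss35, Npas3, Sfrp5, Klhdc9, Dcst1 and BC022960 are little-studied in the locus coeruleus and were picked, out of 14443 genes with counts, because their transcripts were lower after sleep deprivation. They lie outside the clock and oligodendrocyte gene families, whose falls in these libraries were already known when the choice was made. The deprivation values of these genes are therefore what they were chosen by, and are given here as a description. Which deprivation contrast was used for the choice is not stated. The contrasts in WT, in CnB1KO and averaged over genotypes are all treated as used. All 8 were matched by symbol, and all 8 passed the filter on low counts, as did every other gene of the table.

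The locus coeruleus is the small brainstem nucleus whose noradrenergic neurons fire during waking, and keeping an animal awake builds up sleep pressure while those neurons stay active. The 8 genes share no pathway. Abcc6 and Pipox act in transport and metabolism, Prss35 and Sfrp5 encode secreted proteins, Npas3 encodes a transcription factor, Dcst1 and Klhdc9 encode a membrane protein and a kelch-repeat protein, and BC022960 is annotated as a transcribed processed pseudogene.

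RNA was sequenced from dissected locus coeruleus of mice in 4 groups, with all brains taken 4 weeks after injection of an AAV carrying Cre under the neuronal hSyn promoter. WT_S6 (n = 4) and WT_SD6 (n = 5) were ABC-Ctrl mice that slept normally or were deprived of sleep for 6 h. CnB1KO_S6 (n = 5) and CnB1KO_SD6 (n = 5) were ABC-CnB1KO mice, in which CnB1 (calcineurin B, which regulates the phosphatase calcineurin) is knocked out, under the same pair of sleep conditions. The labels call the samples biological replicates and give no animal, age, litter or batch, so p-values measure the spread between these libraries. Because the promoter is neuronal, other cells of the tissue are not aimed at by the deletion.

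Total counts ran from 3887298 to 7903253 per library, and the shallowest were library 13 of CnB1KO_S6 and library 20 of CnB1KO_SD6 (5110285), numbered as in the deposited table. Ppp3r1, which encodes CnB1, stood at 155 to 164 CPM (counts scaled by TMM to a common library size) in rested and 136 to 165 in deprived WT. In CnB1KO it stood at 120 to 152 CPM rested and 123 to 141 deprived. Averaged over both sleep conditions its log2 difference between CnB1KO and WT was -0.26 (edgeR quasi-likelihood test, adjusted p = 0.00758), and the 2 deprived groups overlapped. Of 10 noradrenergic markers 9 had counts, with summed levels of 664 to 1678 CPM, so the defining genes of the labelled nucleus were present in all 19 libraries. All 10 cerebellar granule cell markers also had counts, with summed levels of 450 to 2588 CPM that overlapped between all groups. In bulk tissue, fewer cells of a type and less RNA per cell cannot be told apart.

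On GRCm38 (GENCODE M21) the genes lie on 8 different chromosomes. Abcc6 spans chromosome 7 from 45967555 to 46030302 on the minus strand with 31 exons, and Pipox chromosome 11 from 77880615 to 77894096 on the minus strand with 8 exons. Prss35 spans chromosome 9 from 86743649 to 86758443 on the plus strand with 2 exons, and Sfrp5 chromosome 19 from 42197971 to 42202252 on the minus strand with 3 exons. Npas3 is by far the longest, covering 823499 bases of chromosome 12 from 53248677 to 54072175 on the plus strand with 12 exons. Klhdc9 spans chromosome 1 from 171358446 to 171360798 on the minus strand with 4 exons, and Dcst1 chromosome 3 from 89350219 to 89365253 on the minus strand with 16 exons. BC022960 is a single exon on the X chromosome, from 169368189 to 169370003 on the plus strand. Of the 8, 7 are annotated as protein coding.

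Sequence ahead of the transcription start was available in RefSeq (GRCm38.p6) for 6 of the genes, and the 250 bases before each start were searched on both strands. For Prss35, Pipox and Npas3 the bases after the RefSeq start did not open a GENCODE transcript, so their windows depend on the start used. The Pipox window, chr11:77893873-77894122, lies mostly within the GENCODE span of the gene, which begins at 77894096 on the minus strand. The motif TGACG, the core of the cyclic AMP response element, occurred in 3 of the 6 windows, against 17.8% of all 32851 mouse windows of this length. The CCAAT box CCAAT occurred in 2 of the 6, against 33.8% of all windows. The 3 windows with TGACG are printed because they are the only ones of the 6 with a match to any motif searched, with each match to TGACG or CCAAT on either strand in capitals. In order, the windows are chr1:171360799-171361048 on the minus strand, chr9:86743383-86743632 on the plus strand and chr19:42202253-42202502 on the minus strand.

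Klhdc9: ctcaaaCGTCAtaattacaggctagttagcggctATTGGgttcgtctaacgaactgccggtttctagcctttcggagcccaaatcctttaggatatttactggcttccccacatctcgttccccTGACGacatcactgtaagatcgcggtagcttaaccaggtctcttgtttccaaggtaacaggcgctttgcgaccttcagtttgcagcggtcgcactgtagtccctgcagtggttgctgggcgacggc

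Prss35: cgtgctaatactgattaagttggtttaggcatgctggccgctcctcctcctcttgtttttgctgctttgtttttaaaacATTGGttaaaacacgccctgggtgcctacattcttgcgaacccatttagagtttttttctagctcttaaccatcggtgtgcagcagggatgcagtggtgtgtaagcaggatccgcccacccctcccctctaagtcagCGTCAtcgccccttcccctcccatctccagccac

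Sfrp5: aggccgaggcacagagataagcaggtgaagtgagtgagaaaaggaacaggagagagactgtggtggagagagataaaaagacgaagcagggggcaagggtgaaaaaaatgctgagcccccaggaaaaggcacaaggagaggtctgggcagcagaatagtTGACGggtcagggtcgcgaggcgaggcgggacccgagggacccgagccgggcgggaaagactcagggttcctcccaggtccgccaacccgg

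In Klhdc9 the TGACG matches begin 244 and 126 bases before the start and the CCAAT match 216 bases before it. Prss35 has TGACG at 34 and CCAAT at 171 bases before the start, and Sfrp5 has TGACG at 91. None of the 6 windows held the E-box CACGTG (6.02% of all windows), the D-box TTATGTAA (0.819%) or TTACGTAA (0.113%), the full response element TGACGTCA, which contains TGACG on both strands (1.55%), the AP-1 site TGANTCA (6.75%) or TATAAA (12.4%). The palindromic glucocorticoid response element (0.00913%) and the heat shock element (0.466%) were also not in these windows. Base composition ran from 50.8% to 66.4% G and C, around a median of 52.4% over all windows. These are matches of letters, and no binding was measured.

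Per length, Sfrp5 was the most abundant of the 8 in rested WT tissue, at 19.1 ± 2.57 FPKM (deposited fragments per transcript length and library size, SD, n = 4), followed by Npas3 at 11.03 ± 1.02 and BC022960 at 7.69 ± 0.286. Klhdc9 (4.99 ± 0.602), Pipox (4.74 ± 0.798) and Dcst1 (4.16 ± 0.962) came next on the FPKM scale and did not differ from one another beyond their spread. Prss35 at 1.98 ± 0.308 and Abcc6 at 1.23 ± 0.369 FPKM were the lowest. The order was the same in CnB1KO_S6 except that Pipox (5.66 ± 0.560 FPKM) stood above Klhdc9 (4.92 ± 0.875 FPKM), within their spread. In WT_SD6 Pipox (2.53 ± 0.310 FPKM) ranked under both Dcst1 (3.69 ± 1.02 FPKM) and Klhdc9 (3.53 ± 0.722 FPKM), and in CnB1KO_SD6 it ranked above both, at 3.28 ± 0.863 FPKM against 2.07 ± 0.575 and 2.96 ± 0.448 FPKM. By mean CPM over all libraries, 6 of the 8 ranked low among counted genes, from the 6.58th percentile for Abcc6 to the 22.8th for BC022960. Sfrp5 was at the 43.8th and Npas3 at the 58.5th. Mean counts per library ran from 31.7 for Abcc6 to 346 for Npas3, so counting error is largest for Abcc6, Klhdc9 and Dcst1.

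Abcc6 encodes an ATP-binding cassette transporter best known from liver and kidney, where it raises extracellular pyrophosphate and so limits ectopic mineralization. Its level was 6.78, 5.40, 7.15 and 5.86 CPM in WT_S6 and 3.10, 4.24, 2.90, 3.46 and 3.46 CPM in WT_SD6. In CnB1KO_S6 it was 5.49, 9.29, 6.28, 7.88 and 5.46 CPM and in CnB1KO_SD6 2.94, 3.29, 3.76, 4.26 and 3.38 CPM. All 10 deprived libraries lay below all 9 rested ones. Its log2 change averaged over genotypes was -0.92 (SE 0.12), a 1.89-fold fall and the 5th lowest of all 14443 genes.

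Pipox encodes the peroxisomal enzyme that oxidizes sarcosine and L-pipecolate, a product of lysine breakdown. It stood at 11.2, 11.3, 9.44 and 6.63 CPM in WT_S6 and at 6.06, 5.37, 6.25, 5.64 and 4.45 CPM in WT_SD6. CnB1KO_S6 gave 10.7, 12.5, 11.5, 13 and 10.3 CPM and CnB1KO_SD6 gave 5.39, 7.02, 9.26, 6.57 and 5.38 CPM. Within each genotype the groups did not overlap, but library 4 of WT_S6 was close to the deprived libraries and library 18 of CnB1KO_SD6 close to the rested ones. Averaged over genotypes, Pipox changed by a log2 of -0.79 (SE 0.12), 1.72-fold and the 11th lowest.

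Prss35 encodes a secreted serine protease-like protein studied mainly in the ovary. Its values were 6.93, 8.18, 9.30 and 6.63 CPM in WT_S6 and 6.2, 5.93, 5.64, 3.64 and 6.2 CPM in WT_SD6. They were 10.3, 10.3, 8.46, 11.2 and 9.98 CPM in CnB1KO_S6 and 4.74, 6.2, 5.79, 4.8 and 4.98 CPM in CnB1KO_SD6. No deprived library reached any rested one, and the gap was narrow in WT (6.2 against 6.63 CPM) and wide in CnB1KO (6.2 against 8.46 CPM). Its averaged log2 change was -0.70 (SE 0.10), 1.63-fold and the 20th lowest. Stretches of up to 559 bases of its transcript match other genes at 90% identity or more, so a share of its reads may be uncertain. The genes with the longest matches, from D10Wsu102e (559 bases) to Scd4 (337 bases), were not in the count table. Genes with shorter matches were not looked up there.

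Sfrp5 encodes a secreted frizzled-related protein that binds Wnt ligands and keeps them from their receptors. Its levels were 44.6, 48.1, 36.2 and 38.4 CPM in WT_S6 and 33.7, 33.8, 25.3, 29.5 and 30.4 CPM in WT_SD6. They were 39.7, 39.9, 37.1, 40.1 and 33.2 CPM in CnB1KO_S6 and 29.1, 22.8, 30.8, 27.7 and 30.5 CPM in CnB1KO_SD6. The groups were separate within each genotype, and rested library 15 of CnB1KO_S6 (33.2 CPM) lay just under the top 2 deprived WT libraries. For Sfrp5 the average on the log2 scale was -0.44 (SE 0.07), 1.36-fold and the 121st lowest.

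Npas3 encodes a transcription factor of the basic helix-loop-helix PAS family, which also holds the clock activators. It had 66.8, 66.4, 67.4 and 55.8 CPM in WT_S6 and 51.3, 48.5, 47.2, 37.8 and 44.7 CPM in WT_SD6. It had 67.0, 67.8, 57.0, 64.9 and 66.7 CPM in CnB1KO_S6 and 37.6, 49.4, 46.6, 41.7 and 40.0 CPM in CnB1KO_SD6. As for Abcc6 and Prss35, all 10 deprived libraries were below all 9 rested ones, and 7 of the rested libraries sat within 64.9 to 67.8 CPM. Npas3 averaged a log2 change of -0.53 (SE 0.06), 1.45-fold and the 72nd lowest.

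Dcst1 encodes a multi-pass membrane protein with a DC-STAMP domain, a family known from cell fusion. Its levels were 8.67, 7.10, 8.87 and 8.48 CPM in WT_S6 and 8.12, 5.65, 6.25, 8.91 and 5.93 CPM in WT_SD6, where libraries 6 and 9 were as high as rested ones. They were 7.95, 9.45, 7.64, 8.71 and 7.33 CPM in CnB1KO_S6 and 5.72, 5.30, 4.49, 5.33 and 2.19 CPM in CnB1KO_SD6, with no overlap and library 20 lowest. The averaged log2 change was -0.54 (SE 0.13), 1.45-fold and the 67th lowest.

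Klhdc9 encodes a protein with kelch repeats, a fold that usually binds other proteins. It was measured at 5.52, 7.56, 6.3 and 6.48 CPM in WT_S6 and at 5.76, 3.81, 5.03, 3.64 and 5.93 CPM in WT_SD6. It was at 7.80, 6.09, 6.28, 7.33 and 4.99 CPM in CnB1KO_S6 and at 3.76, 4.44, 4.05, 3.20 and 4.18 CPM in CnB1KO_SD6. Libraries 6 and 10 of WT_SD6 overlapped the rested range, and the CnB1KO groups did not overlap. The averaged log2 change was -0.57 (SE 0.12), 1.48-fold and the 52nd lowest.

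Exons at the downstream ends of Klhdc9 and of Pfdn2, a prefoldin subunit gene on the plus strand from 171345670 to 171359254, overlap by 535 bases, which is 34.3% of the exon bases of Klhdc9. The libraries carry no strand information, so reads from these bases cannot be assigned to either gene. The same holds for 1268 exon bases of Dcst1 (24.2% of its exons) shared with the pseudogene Gm10702, and for 83 of Npas3 shared with the antisense gene 1700060O08Rik, both on the opposite strand and neither in the count table. Pfdn2 differed by -0.04 in WT and 0.05 in CnB1KO on the log2 scale after deprivation (averaged 0.00, adjusted p = 0.993).

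BC022960 is the only one of the 8 without an annotated coding sequence, and no other annotated transcript matched it at 90% identity over 100 bases or more. It had 15.9, 16.8, 15.2 and 15.7 CPM in WT_S6 and 15.1, 13.1, 10.97, 13.5 and 14.1 CPM in WT_SD6, where library 6 (15.07) came close to the lowest rested library (15.17). It had 15.8, 17.6, 19.7, 14.4 and 15.9 CPM in CnB1KO_S6 and 11.9, 12.9, 9.84, 9.41 and 10.2 CPM in CnB1KO_SD6, with a clear gap. The averaged log2 change was -0.43 (SE 0.08), 1.35-fold and the 130th lowest. Gm15246, which shares 2 exon bases with it on the same strand, differed by -0.38 (adjusted p = 0.0444).

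**Figure D1:**
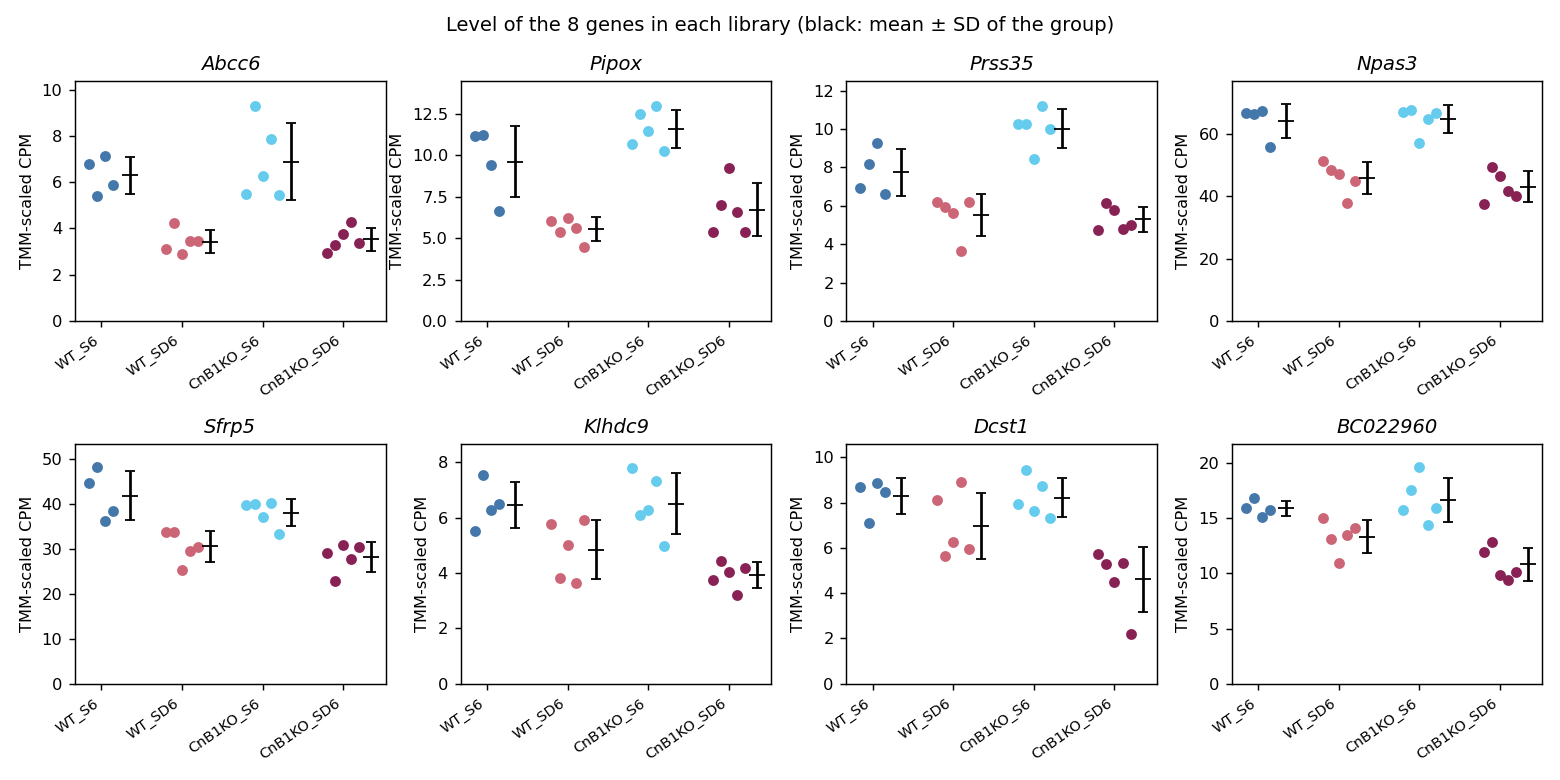
TMM-scaled CPM (vertical axis, from 0) of each gene in each of the 19 libraries, by group, with 1 point per library in order of library number and the mean ± SD of the group in black. The deprived groups SD6 sit under the rested groups S6 of the same genotype, with overlapping points for Klhdc9 and Dcst1 in WT.

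In WT, the log2 change with deprivation ran from -0.87 (SE 0.18) for Abcc6 and -0.80 (SE 0.17) for Pipox, through -0.48 (SE 0.15) for Prss35, -0.48 (SE 0.09) for Npas3, -0.45 (SE 0.10) for Sfrp5 and -0.41 (SE 0.17) for Klhdc9, to -0.26 (SE 0.19) for Dcst1 and -0.25 (SE 0.11) for BC022960. In CnB1KO it was -0.97 (SE 0.17) for Abcc6, -0.92 (SE 0.14) for Prss35, -0.82 (SE 0.19) for Dcst1, -0.77 (SE 0.16) for Pipox and -0.73 (SE 0.17) for Klhdc9. The smallest there were BC022960 at -0.60 (SE 0.11), Npas3 at -0.59 (SE 0.08) and Sfrp5 at -0.44 (SE 0.10). The median over the 8 genes was -0.47 in WT and -0.75 in CnB1KO, beside 0.00 and -0.01 over all genes.

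At an adjusted p under 0.05, 4 of the 8 were lower in WT, where 0.367% of all genes were, and 8 of 8 in CnB1KO, where 0.228% were. Averaged over genotypes 8 of 8 were lower, beside 2.13% of all genes. Since these contrasts are treated as used for the choice of the genes, the counts describe the choice and are no evidence. In CnB1KO 3 of the 8 stood at the threshold, Sfrp5 and Klhdc9 (each with an adjusted p of 0.0493, edgeR) and Dcst1 (adjusted p = 0.0494, edgeR). In WT the nearest inside was Sfrp5 (adjusted p = 0.0361, edgeR), and the nearest outside, well away from it, was Prss35 (adjusted p = 0.149, edgeR). Every deprived library lay below every rested one for 6 of 8 genes in WT (2.1% of all genes), for 8 of 8 in CnB1KO (1.28%) and, with both genotypes pooled, for 3 of 8 (0.187%).

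These counts changed when 1 library was left out, as did calls among all genes. The WT count was 1 or 2 without library 1, 2, 3, 9 or 10. Of all genes 23, 19, 21, 26 and 55 were then called lower in WT, in place of 53. The CnB1KO count was 4 without any 1 of libraries 11 to 14, 17, 19 or 20, and 5 without library 1, 4, 6, 16 or 18. In these fits 17 to 32 of all genes were called lower in CnB1KO, in place of 33.

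**Figure D2:**
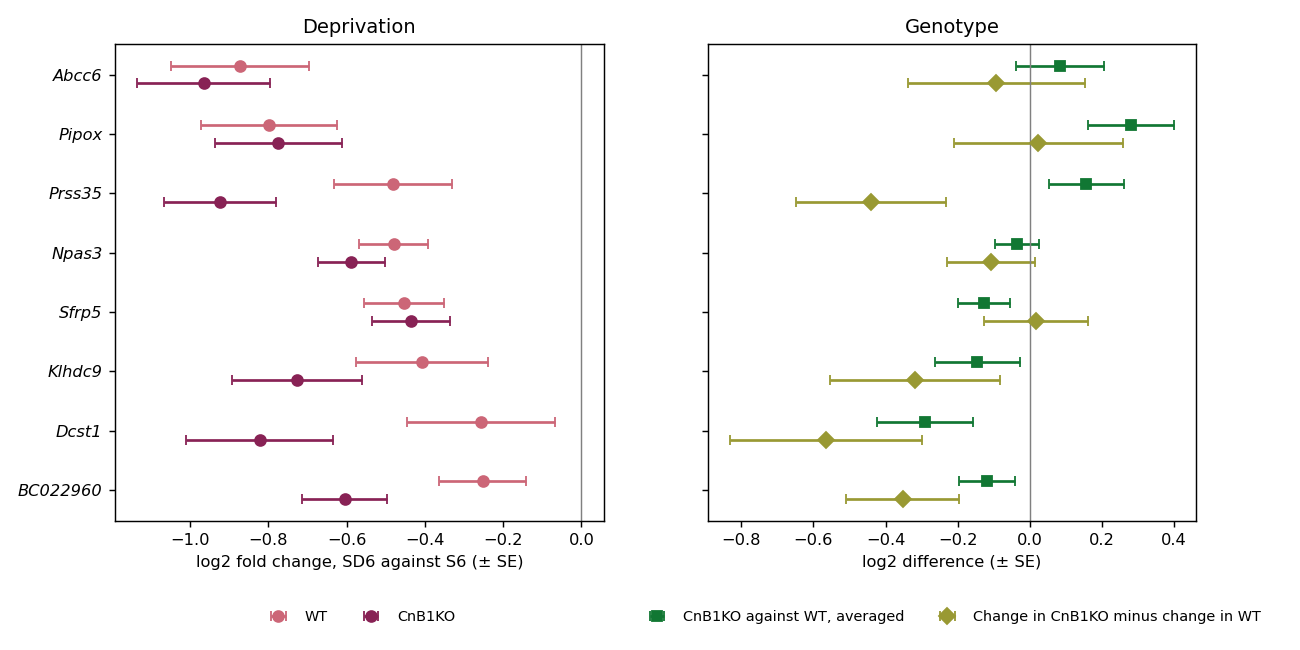
Left, log2 fold change of SD6 against S6 for each gene in WT and in CnB1KO; right, the log2 difference of CnB1KO against WT averaged over sleep conditions (squares) and the difference between the genotypes' changes (diamonds), all with SE. All 16 deprivation values lie left of 0, while the genotype values lie on both sides.

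Taking the mean over the 8 genes in each library, relative to the 9 rested libraries, placed rested libraries between -0.18 (library 4) and 0.16 (library 12) on the log2 scale. WT_SD6 libraries lay between -0.63 (library 9) and -0.39 (library 6), and CnB1KO_SD6 libraries between -0.84 (library 20) and -0.56 (library 18). This mean was lower in every deprived library than in any rested one, a separation that the choice of the genes fixes. In library 6, 4 of the 8 genes were below all rested libraries, in 6 of the other deprived libraries 7 were, and in libraries 16, 19 and 20 all 8 were.

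**Figure D3:**
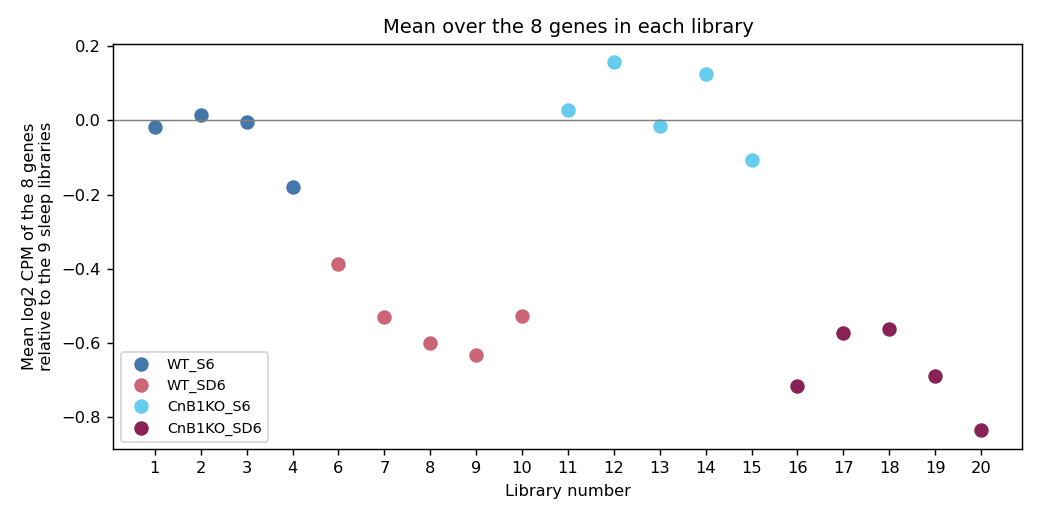
Mean log2 CPM of the 8 genes relative to the 9 rested libraries (vertical axis) by library number (horizontal axis), with 1 point per library coloured by group. Rested libraries lie between -0.18 and 0.16 and deprived ones between -0.84 and -0.39.

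Whether calcineurin loss shifted these genes apart from sleep was asked by the difference between CnB1KO and WT averaged over both sleep conditions, which the choice of genes did not use. None of the 8 passed (edgeR, adjusted p under 0.05), beside 3.09% of all genes. DESeq2 and limma voom also called none. At an unadjusted p under 0.05 there were 2, beside 23.1% of all genes. Pipox was higher in CnB1KO by 0.28 (95% interval 0.03 to 0.53, adjusted p = 0.170), at 9.63 ± 2.17 and 11.6 ± 1.15 CPM in the rested groups and 5.55 ± 0.707 and 6.72 ± 1.59 CPM in the deprived ones. Dcst1 was lower by -0.29 (95% interval -0.57 to -0.01, adjusted p = 0.199), with rested means of 8.28 ± 0.804 and 8.22 ± 0.860 CPM and deprived means of 6.97 ± 1.45 and 4.61 ± 1.42 CPM.

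The other 6 had log2 differences from -0.15 for Klhdc9 to 0.16 for Prss35. Their intervals bound the difference most tightly for Npas3 (-0.17 to 0.09) and least for Abcc6 (-0.18 to 0.35) and Klhdc9 (-0.40 to 0.11). Markers of several other cells moved with genotype in the averaged comparison. Of the counted markers, 5 of 10 endothelial, 3 of 8 pericyte and smooth muscle (Pdgfrb, Rgs5 and Vtn), 3 of 12 oligodendrocyte (Mag, Ermn and Ugt8a) and 2 of 10 microglial ones (C1qa and C1qc) were higher in CnB1KO, and no marker of the other lists passed. The summed endothelial level after sleep was 487 to 567 CPM in WT and 609 to 747 CPM in CnB1KO. After deprivation it was 472 to 604 CPM in WT and 573 to 744 CPM in CnB1KO. The summed pericyte and smooth muscle level was 357 to 382 CPM in WT_S6, 402 to 484 CPM in CnB1KO_S6, 336 to 426 CPM in WT_SD6 and 390 to 521 CPM in CnB1KO_SD6. With the oligodendrocyte score as a covariate the difference of Pipox was 0.20 (adjusted p = 0.790, edgeR), and 11 of all genes were called in place of 447. The part of the endothelial, pericyte and microglial shifts in the values of Pipox was not tested.

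Within one sleep condition the genotypes share libraries with the contrasts treated as used for the choice of the genes. After sleep 0 of 8 passed (0.0485% of all genes) and 1 had an unadjusted p under 0.05 (10.1% of all genes). This was Prss35, at 7.76 ± 1.22 CPM in WT_S6 and 10.03 ± 0.992 in CnB1KO_S6 (log2 difference 0.38, edgeR adjusted p = 0.410). After deprivation 0 of 8 passed (0.132% of all genes) and 2 had an unadjusted p under 0.05 (15.2% of all genes). They were Dcst1 (log2 difference -0.57, edgeR adjusted p = 0.202) and BC022960 (-0.30, edgeR adjusted p = 0.236), the latter at 13.3 ± 1.52 CPM in WT_SD6 and 10.8 ± 1.49 CPM in CnB1KO_SD6. DESeq2 and limma voom called none in either condition.

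The change with deprivation did not pass a test of difference between genotypes for any of the 8 (edgeR interaction, 0% of all genes called, and none by DESeq2 or voom). The interaction is the difference of the WT and CnB1KO changes, both treated as used for the choice of the genes. More of the 8 were called in CnB1KO than in WT. The sign and unadjusted p of the interaction are therefore treated as part of that choice and are given as a description. At an unadjusted p under 0.05 there were 3 of the 8, where 1.99% of all genes were. Their interaction values were -0.57 (SE 0.27) for Dcst1, -0.44 (SE 0.21) for Prss35 and -0.35 (SE 0.16) for BC022960, each with an adjusted p of 0.9999 by edgeR. The smallest were those of Pipox (0.02) and Sfrp5 (0.02). The 95% interval for Sfrp5, -0.29 to 0.32, was the narrowest after that of Npas3 (-0.37 to 0.15). For Prss35 the larger value in CnB1KO came with a higher rested level in that genotype, and for BC022960 and Dcst1 with a lower deprived level.

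Across the 19 libraries the 28 pairs of genes correlated with Pearson's r of 0.48 to 0.92 (median 0.70), which includes the fall that the genes were chosen by. After subtraction of group means the range was -0.31 to 0.83 with a median of 0.13, and 19 of 28 pairs were positive. Prss35 and Npas3 had the highest value within groups (0.83), then Prss35 and Klhdc9 (0.56) and Pipox and Npas3 (0.56). BC022960 was between -0.17 and 0.23 with each of the others. Prss35 (0.69) and Npas3 (0.58) also followed the log2 total count of the library within groups, while the other 6 ranged from -0.24 to 0.34, and the part of depth in the first pair's correlation was not tested. With the log2 total as a covariate the deprivation values of Prss35 were -0.52 in WT and -0.93 in CnB1KO, and those of Npas3 -0.50 and -0.59.

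Some oligodendrocyte markers fell with deprivation. All 12 had counts, 2 fell in WT, 1 in CnB1KO and 3 in the average, and their summed level in WT was 2106 to 2391 CPM rested and 1953 to 2198 CPM deprived. In CnB1KO it was 2069 to 3196 CPM rested and 2122 to 2597 CPM deprived. Within groups, r between the mean scaled level of these markers and the 8 genes ran from -0.26 (Dcst1) to 0.28 (Pipox). With that score as a covariate, the WT values were -0.91 for Abcc6, -0.70 for Pipox, -0.49 for Prss35, -0.44 for Npas3, -0.47 for Sfrp5, -0.42 for Klhdc9, -0.36 for Dcst1 and -0.19 for BC022960. In CnB1KO none of the 8 values moved by more than 0.03 from its value without the score. None of the 8 passed in WT in that fit, where 19 of all genes were called lower in place of 53. In WT the score itself was lower after deprivation, at 0.04 ± 0.44 rested and -0.92 ± 0.44 deprived (mean ± SD). In CnB1KO the score was 0.58 ± 1.01 rested and 0.32 ± 0.61 deprived. The fit therefore cannot separate the score from deprivation in WT. Of 10 microglial markers, all counted, 1 fell in WT and none in CnB1KO, with summed levels of 330 to 368 CPM in rested and 267 to 340 CPM in deprived WT, and their part in the WT values was not tested. Of 10 markers of oligodendrocyte precursors and newly formed oligodendrocytes 9 had counts. Of these 1, Enpp6, fell in WT (-0.76) and in the average (-0.54), and none fell in CnB1KO. Within groups, r of the 8 genes with this list ran from -0.04 (Pipox) to 0.52 (Npas3), with 0.49 for Prss35 and 0.47 for BC022960. The part of these cells was not tested.

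Each of the 8 genes was also set beside each of 16 marker lists within groups. The values named were picked for their size after all were seen. Others of like size are not named, such as -0.49 for Npas3 with serotonergic markers. Npas3 had r of 0.76 with both the endothelial and the pericyte and smooth muscle markers and -0.53 with neuronal ones. Prss35 had 0.59, 0.63 and -0.63 with the same 3 lists, -0.60 with astrocyte and -0.55 with ependymal markers. Sfrp5 had 0.57 with ependymal and with noradrenergic markers, Pipox 0.74 with blood and 0.52 with endothelial markers, Dcst1 0.48 with granule cell markers and BC022960 0.67 with the 3 counted serotonergic markers. Abcc6 stayed between -0.32 and 0.39 over the lists and Klhdc9 between -0.37 and 0.32. These are descriptions over 19 libraries that differ in depth, and no difference between genes was tested.

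**Figure D4:**
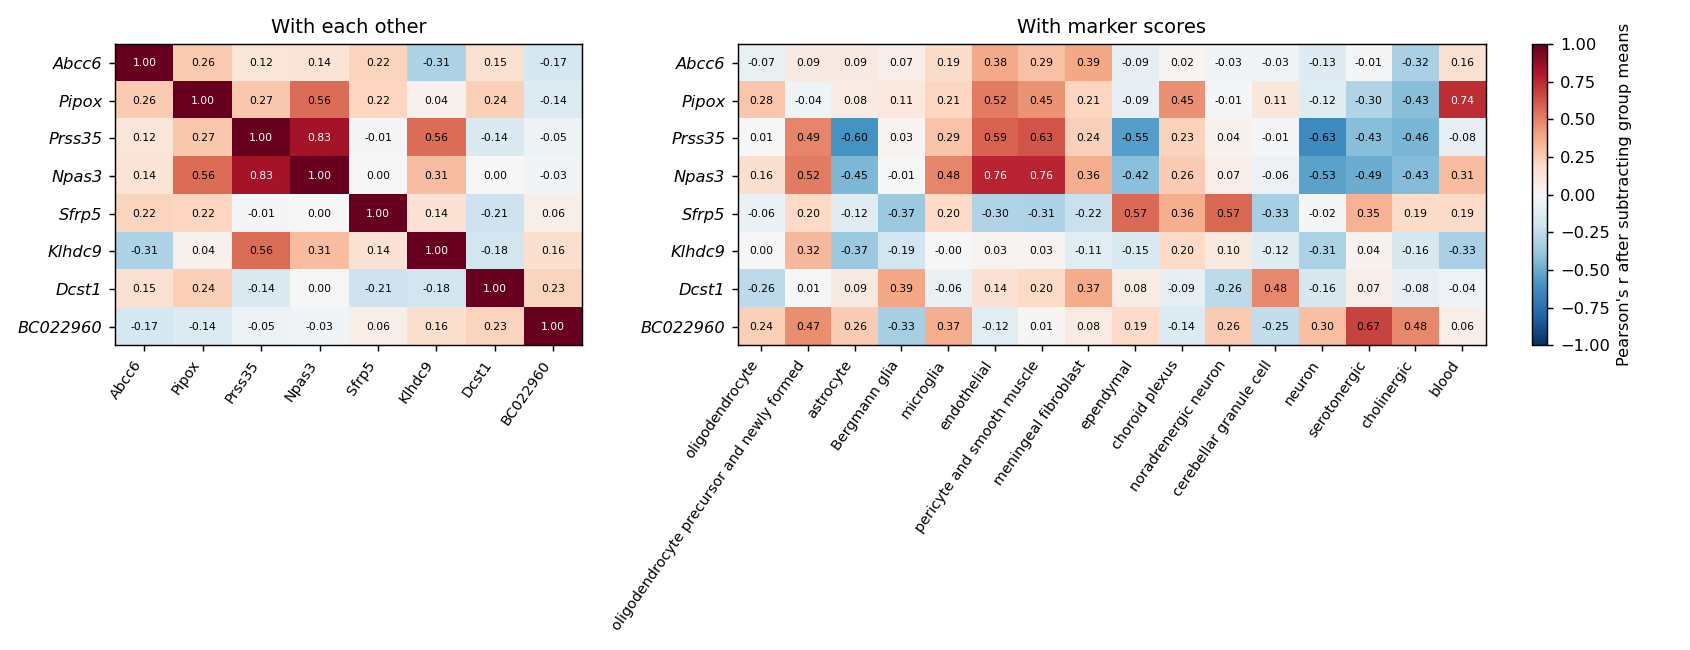
Pearson's r over 19 libraries after subtraction of group means, between the 8 genes (left) and between each gene and the mean scaled level of 16 marker lists (right), coloured from -1 (blue) to 1 (red). The darkest cell between genes is that of Prss35 and Npas3 (0.83), and most others are pale.

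By Pearson's r of log2 CPM over the 19 libraries, the genes most like Abcc6 were Rps6ka4 (0.88, and 0.61 within groups), Dbp (0.88 and 0.36) and Notch3 (0.83 and 0.50). For Pipox they were Tlcd1 (0.87 and 0.69), Xrcc3 (0.86 and 0.52) and Pllp (0.86 and 0.58). For Prss35 they were Ednra (0.90 and 0.67), Cd180 (0.86 and 0.61) and Exoc2 (0.85 and 0.56). The last pair recurred for Npas3, with Exoc2 at 0.92 (0.60 within groups), Cd180 at 0.92 (0.71) and Opalin at 0.90 (0.64).

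Sfrp5 was most like Ankrd44 (0.90 and 0.69), Scara3 (0.87 and 0.64) and Vangl2 (0.85 and 0.61). Klhdc9 had the weakest matches, Reps1 (0.80 and 0.58), Mfsd13a (0.78 and 0.73) and Exoc2 (0.76 and 0.25). Dcst1 was most like Pspc1 (0.86 and 0.62), Dennd10 (0.85 and 0.68) and Fam204a (0.79 and 0.73), and BC022960 most like Ddhd1 (0.85 and 0.65), Phf14 (0.84 and 0.52) and Manea (0.84 and 0.60). Averaged deprivation values of these 21 genes ran from -1.08 for Opalin to -0.08 for Mfsd13a, all lower, which follows from matching over libraries that include the fall of the 8 genes.

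Of the counted genes nearest to each member within 50 kb, Nomo1 beside Abcc6 differed by -0.00, Myo18a and Sez6 beside Pipox by -0.01 and -0.20, and Snap91 and A330041J22Rik beside Prss35 by -0.03 and -0.16 (averaged log2 change). Zfyve27 and Golga7b beside Sfrp5 differed by 0.01 and 0.08, Nit1 and Nectin4 beside Klhdc9 by 0.07 and -0.08, Adam15 and Zbtb7b beside Dcst1 by -0.01 and 0.20, and Hccs beside BC022960 by -0.06. None of these neighbours passed, with the lowest adjusted p at 0.113 for Zbtb7b (edgeR), whereas the overlapping Gm15246 did.

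Relatives and pathway partners of the 8 genes were examined by list, where of all genes 0.775% rose in WT, 0.464% in CnB1KO and 2.57% in the average, beside the shares that fell given above. Of the ABCC transporters related to Abcc6, 7 of 9 had counts and none passed in WT, CnB1KO or the average, with a median averaged log2 change of 0.08. The 14 pyrophosphate and mineralization genes, all counted, also had no pass (median 0.01). In sarcosine, pipecolate and lysine metabolism 10 of 14 were counted and 1 rose in the average, Aass, which encodes the enzyme that opens the saccharopine route of lysine breakdown. Aass was at 7.63 ± 1.73 CPM in WT_S6 and 16.01 ± 5.55 in WT_SD6, and at 7.52 ± 0.909 in CnB1KO_S6 and 12.3 ± 5.24 in CnB1KO_SD6 (1.85-fold averaged, edgeR adjusted p = 0.0130). It did not pass in WT (adjusted p = 0.0812, edgeR) or CnB1KO (adjusted p = 0.344, edgeR) alone. Of 19 counted peroxisomal genes out of 21, 1 rose in WT and in the average, the import receptor gene Pex5 (0.22 in WT, adjusted p = 0.0361, edgeR), and none fell.

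Of 18 other bHLH-PAS factor and coactivator genes 15 were counted, and 2 rose in both genotypes while none fell. Npas2, a partner of the clock factor BMAL1, was higher by 0.58 in WT (adjusted p = 0.0132, edgeR) and 0.62 in CnB1KO (adjusted p = 0.00544, edgeR) on the log2 scale. Hif3a, of the hypoxia-inducible group, was higher by 1.19 in WT (adjusted p = 0.00662, edgeR) and 1.31 in CnB1KO (adjusted p = 0.00261, edgeR). Npas3 itself was at 64.1 ± 5.53 and 45.9 ± 5.09 CPM in rested and deprived WT and at 64.7 ± 4.41 and 43.1 ± 4.84 CPM in CnB1KO, the opposite direction.

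Of 14 other Wnt inhibitor genes, all for secreted proteins except the membrane receptor genes Kremen1 and Kremen2, 9 were counted and none passed (median -0.03). The Sfrp5 paralogs Sfrp1 and Sfrp2, named after their values were seen, differed by -0.03 and -0.11 in the average. All 25 Wnt receptor and target genes were counted, with none passing in either genotype alone and 1 in each direction in the average. These were the receptor gene Fzd4, higher by 0.39 (adjusted p = 0.0142, edgeR), and the inhibitor gene Apcdd1, lower by -0.25 (adjusted p = 0.0324, edgeR). Of 13 kelch domain genes, all counted, Klhdc7a rose in the average by 0.44 (adjusted p = 0.0257, edgeR). Of 15 serine protease genes 10 were counted and 1, Htra1, rose in WT by 0.37 (adjusted p = 0.0133, edgeR) and in CnB1KO by 0.33 (adjusted p = 0.0266, edgeR). Only 2 of 6 genes listed for the DC-STAMP domain and fusion had counts, and neither passed.

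**Figure D5:**
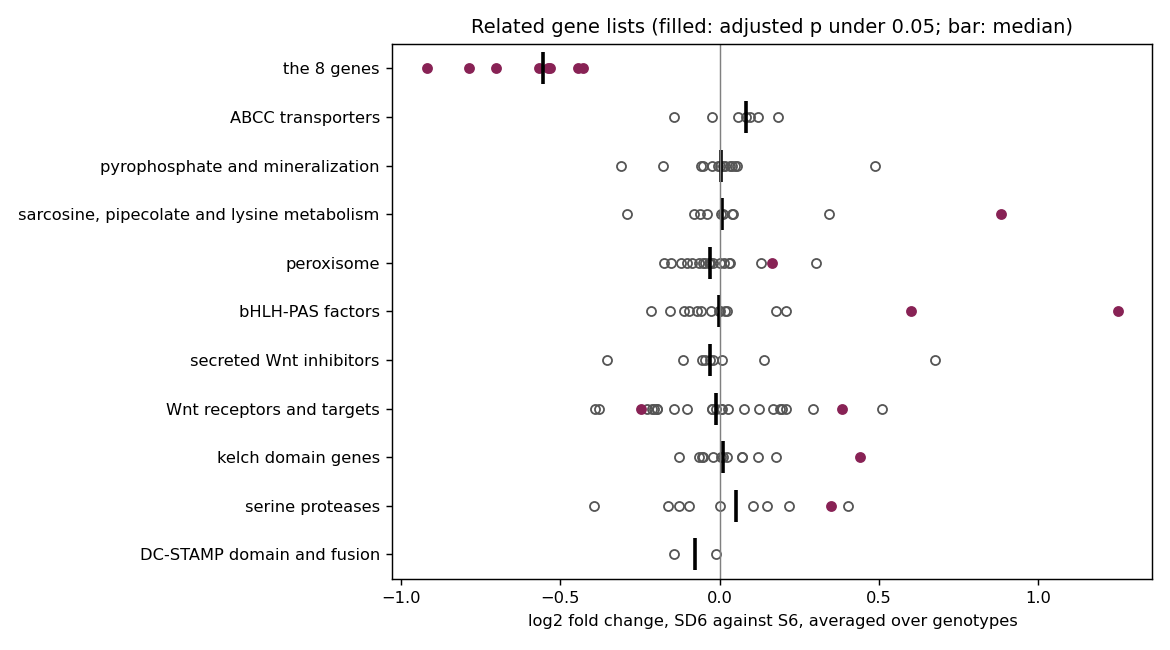
Log2 fold change of SD6 against S6 averaged over genotypes (horizontal axis) for the 8 genes and each counted gene of 10 related lists (rows), with points filled where the adjusted p was under 0.05 and a bar at each median. The 8 genes were chosen for their values, with a median of -0.55, while the medians of the lists lie near 0 and 1 filled point, Apcdd1, is below 0.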

How the data were processed

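The authors deposited whole-number counts per gene symbol for 19 libraries in 1 table, and 1 further table of FPKM values for each of the 4 groups. Tools listed, with no role, in the submitters' processing notes are HTSeq 2.0.4, StringTie 2.2.1, FastQC 0.12.1, SAMtools 1.6, Trim Galore 0.6.10 and Picard 2.18.29, with the build GRCm38. The sources used here name neither the aligner nor the treatment of duplicate reads. Per the labels' protocols the libraries were poly(A)-selected, and the kits named do not mark strand. The columns the authors name TPM did not sum to a constant and were not used.

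After TMM scaling, counts were tested with the 2-sided quasi-likelihood test of edgeR 4.0.16 (R 4.3.3) on all 19 libraries in 4 groups, with 15 residual degrees of freedom and Benjamini-Hochberg adjustment over 14443 genes. The filter filterByExpr kept all of them. The script was tested on simulated data with known changes. Total counts per library were 6260061 to 7002015 (WT_S6), 5606129 to 7903253 (WT_SD6), 3887298 to 7128244 (CnB1KO_S6) and 5110285 to 6966490 (CnB1KO_SD6), and low counts limit the precision of the rarest genes. Correlations used log2 CPM with a prior count of 2.

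Alternatives were DESeq2 1.42.0, limma 3.58.1 on voom values or on log2 FPKM with pseudocounts of 0.1 and 1, other size factors, filters, covariates and sample subsets, and leaving out each library. Named genes were the 8 members, the 3 genes most correlated with each (mean log2 CPM of at least 1, no provisional symbols), overlapping or nearest counted genes within 50 kb, and up to 3 genes per list that passed in a deprivation contrast. The members and lists were chosen with earlier results of these data known.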

Additional observations from a re-analysis of the deposited data

Results flagged for a closer look

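Within 32 groups examined (8 genes in 4 groups), 3 libraries stood far from the rest of their group, where chance flags about 1 group in 20. For Prss35 in WT_SD6, library 9 had 3.64 CPM and the nearest library 5.64 CPM. For Npas3 in WT_S6, library 4 had 55.8 CPM and the nearest 66.4 CPM. For Npas3 in CnB1KO_S6, library 13, the shallowest of all, had 57.0 CPM and the nearest 64.9 CPM.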

How the results depend on the processing

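All 8 genes kept a lower value after deprivation in WT, in CnB1KO and in the average under every alternative run. Their size moved by over 1.5 times only with FPKM at a pseudocount of 1, a scale that understates the change of low genes: Abcc6 was then -0.47 in WT, -0.42 in CnB1KO and -0.44 in the average, Prss35 -0.30, -0.60 and -0.45, and Dcst1 -0.14 in WT and -0.35 in the average. The number called was less stable. Of 8 genes, 4 were called lower in WT, against 0 with the libraries of the 2 compared groups alone, 0 with the oligodendrocyte score as a covariate, and 1 with FPKM at either pseudocount, and 1 to 4 with 1 library left out. Calls among all genes also moved. In WT 53 were lower, against 8 with the compared libraries alone, 19 with the score and 18 with FPKM at either pseudocount. With 1 library left out, 19 to 57 of all genes were lower in WT. In CnB1KO 8 were called, against 3 with the compared libraries alone, 5 with FPKM at either pseudocount, 3 without libraries 13 and 20 (chosen after seeing the data), and 4 to 8 with 1 library left out. Of all genes 33 were lower in CnB1KO, against 19 with the compared libraries alone and 22 without libraries 13 and 20. FPKM gave 22 at a pseudocount of 0.1 and 21 at 1. With 1 library left out, 17 to 51 of all genes were lower in CnB1KO. With a mean count of at least 50 required, 4 were called in CnB1KO and 4 in the average, because 4 of the 8 were then not tested. Fits on compared libraries alone have fewer samples, and otherwise the cause was not tested. The average stayed at 8 with any 1 library left out, and the genotype and interaction counts were 0 throughout. Dcst1 was the least stable in the average. It passed in 26 of 28 alternatives, and its highest adjusted p with 1 library left out was 0.0492 (edgeR).

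Uncalled differences near 0 changed sign in places. The averaged genotype value of Npas3 was 0.010 with library total as a covariate. After sleep, Dcst1 was 0.0024 with library total, 0.041 with the oligodendrocyte score and 0.0060 without libraries 13 and 20, BC022960 was -0.0075 without those, and FPKM gave Npas3 -0.057 and -0.053 and Klhdc9 -0.029 and -0.023. After deprivation Prss35 was 0.038 with library total. The interaction of Pipox was -0.0047 by voom and -0.057 with the oligodendrocyte score, that of Sfrp5 -0.0037 by voom and -0.018 without libraries 13 and 20, and that of Abcc6 0.14 and 0.050 with FPKM. With 1 library left out, values after sleep spanned -0.0031 to 0.21 for Abcc6, -0.0075 to 0.11 for BC022960, -0.074 to 0.033 for Dcst1, -0.065 to 0.10 for Klhdc9 and -0.043 to 0.048 for Npas3, and after deprivation -0.036 to 0.12 for Abcc6. The interaction spanned -0.17 to 0.040 for Abcc6, -0.13 to 0.16 for Pipox and -0.058 to 0.087 for Sfrp5. The cause of these changes was not tested. No paired analysis was possible because the columns of the count table carry library numbers that are not the replicate numbers of the labels. The labels also give no animal, litter or batch, so nothing states that equal replicate numbers in different groups were pairs. Depth limits Abcc6, Klhdc9, Dcst1 and Prss35 most, with mean counts under 50.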
